A study of Homo sapiens with 6 samples.

Results

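The 37 genes described here encode the enzymes that make cholesterol and fatty acids, together with the proteins that set how much of both a cell makes. They were chosen by gene symbol from a list of pathway genes, and all 37 were found among the 58735 genes of the count table. By role they comprised 7 enzymes of the mevalonate arm, 11 enzymes from squalene to cholesterol, 6 genes of SREBP regulation, 8 genes of fatty acid synthesis and 5 genes of the LXR arm. RNA was sequenced from MDA-MB-231, an established human triple-negative breast cancer (TNBC) cell line that the labels give as wild type. In 1 group, 3 samples were cultured for 24 h with vehicle, and in the other, 3 samples were cultured for 24 h with SCH, an extract of the herb Salvia chinensis Benth, at 100 mg/l. Both groups came from the same line, with 1 dose and 1 time, and SCH is a mixture of plant compounds. The series describes the samples as biological repeats, but no label ties a replicate number to a culture or a day, so the p-values measure the spread between these samples. Total counts on genes were 20291379, 18714240 and 18334857 with vehicle, and 16836369, 17979434 and 18414924 with SCH.

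Cells make cholesterol from acetyl-CoA through mevalonate, the isoprenoid farnesyl diphosphate and squalene, and they make fatty acids from the same acetyl-CoA. Both routes are switched on by the SREBP transcription factors, which are held in the endoplasmic reticulum by INSIG and carried by SCAP to the Golgi, where they are cut free when sterol runs short. SREBP-2 mostly drives genes of cholesterol synthesis, and SREBP-1 mostly drives genes of fatty acid synthesis. The nuclear receptor LXR works the other way, sensing oxysterols when sterol is in excess and switching on genes that export cholesterol or limit its uptake. Proliferating cancer cells use the products for new membrane.

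The libraries held the markers of the labelled line. Levels in FPKM are the authors' values, which are counts scaled by the length of the gene and by a factor for each library. That factor was not the total count alone. The genes VIM, CD44, AXL and EGFR, which MDA-MB-231 cells express highly, summed to 689, 708 and 691 FPKM with vehicle. With SCH these 4 genes summed to 482, 483 and 473 FPKM. Of these, VIM, AXL and EGFR fell (log2 fold changes -0.56 ± 0.044, -0.84 ± 0.045 and -0.28 ± 0.052, SE) and CD44 did not pass the test (0.03 ± 0.045). The estrogen receptor gene ESR1 had 1 to 4 counts in each sample and the progesterone receptor gene PGR had at most 1. ERBB2 was detected, at 1225 to 1637 counts in a sample, and rose (log2 fold change 0.29 ± 0.059, SE), and EPCAM, at 203 to 347 counts, fell (-0.52 ± 0.098). Markers of other cell types were low. Adipocyte genes (ADIPOQ, PLIN1, LEP, FABP4) summed to at most 0.0648 FPKM in any sample, with ADIPOQ and LEP at 0 in all 6 samples and FABP4 and PLIN1 at 0 to 2 counts each. Leukocyte genes (PTPRC, CD3E, CD14, CD79A) summed to 0.664, 0.925 and 0.468 FPKM with vehicle and to 0.595, 0.666 and 0.608 FPKM with SCH, and CD14 was the most abundant of them. The leukocyte gene PTPRC alone fell from 39, 37 and 34 counts to 4, 9 and 3. Endothelial genes (PECAM1, CDH5, VWF, KDR) summed to at most 1.48 FPKM, with KDR the most abundant, and fibroblast genes (COL1A1, DCN, LUM, PDGFRB) to 0.732, 0.668 and 0.615 FPKM with vehicle and to 1.02, 1.04 and 0.911 FPKM with SCH, with DCN at 0. COL1A1, the most abundant of these, rose from 106, 80 and 85 counts to 147, 162 and 147 (log2 fold change 0.76 ± 0.135 (SE), adjusted p = 4.26e-05). Ribosomal protein genes took 6.45%, 6.41% and 6.16% of counts with vehicle and 4.75%, 4.83% and 4.98% with SCH, whereas mitochondrial genes took 3.53%, 3.40% and 3.55% against 3.001%, 3.42% and 3.53%. The part of these markers and of the ribosomal protein share in the results was not tested. In RNA from whole cultures, fewer cells of a type and less RNA per cell cannot be told apart.

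Most of the cholesterol and fatty acid genes were moderately lower after SCH, and a few single steps were higher. Of the 36 members that passed the filter on low counts, 30 changed (83.3%), 23 of them lower and 7 higher after SCH. Falls of over 0.6 on the log2 scale were measured for ACACA, SCD, PMVK, MVK, FADS2, INSIG1 and MSMO1, and the rises were in TM7SF2, MYLIP, ACSS2, STARD4, IDI1, SC5D and NR1H2. SCH changed a large part of the transcriptome, so these counts have to be read against it. Among all 14736 tested genes, 58.7% changed (adjusted p under 0.05, edgeR's quasi-likelihood test with Benjamini-Hochberg adjustment), 29.4% lower and 29.3% higher. The shares of the members were 63.9% lower and 19.4% higher, and their median log2 fold change was -0.39, where the median of all tested genes was -0.0034. The samples of the 2 groups did not overlap for 29 members, as was the case for 62.4% of all tested genes. In an exact two-sided permutation test, 3 samples against 3 cannot go below p = 0.1, which is the value of every gene whose groups did not overlap.

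The median absolute log2 fold change was 0.47 over the 36 members and 0.31 over all tested genes. Changes of at least 0.5 in either direction were counted only where the adjusted p was under 0.05. They were found for 16 of the 36 (12 lower, 4 higher), against 26.8% of all tested genes. With the same limit on the adjusted p, only TM7SF2 of the 36 moved by at least 1, against 8.77% of all tested genes. The members together held 0.392%, 0.395% and 0.386% of all counts with vehicle and 0.347%, 0.339% and 0.337% with SCH. The scaling of the libraries matters for changes of this size. When only the library size was used for scaling, the median of all tested genes moved from -0.0034 to 0.10, the share of all calls that were higher went from 49.9% to 62.6%, and 21 members were lower and 8 higher.

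**Figure D1:**
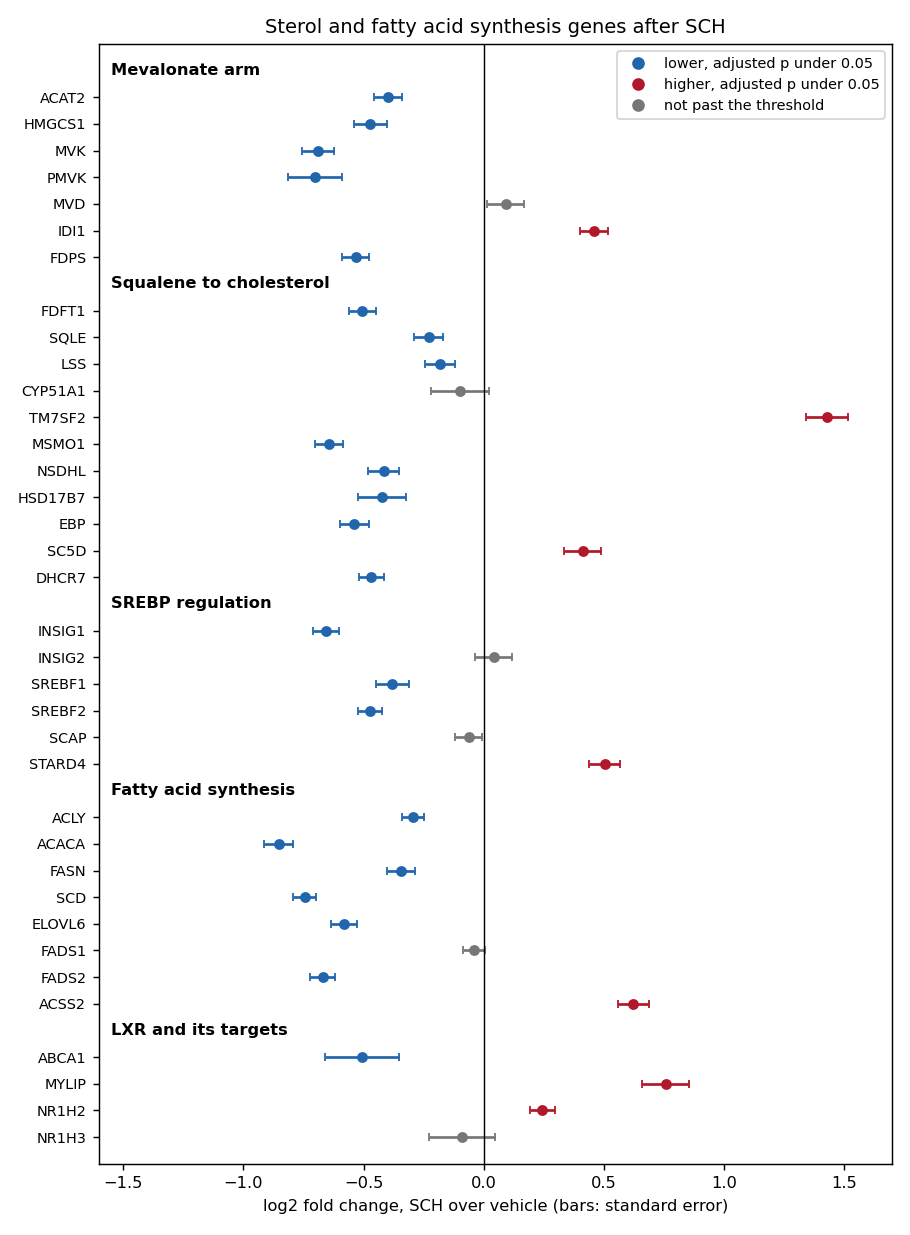
Log2 fold change of SCH over vehicle for the 36 tested genes, grouped by role (points: estimate, bars: standard error, 3 samples per group), with genes past an adjusted p of 0.05 in blue (lower) or red (higher). Of these, 23 lie to the left of 0 in blue, 7 to the right in red, and TM7SF2 stands farthest out at 1.43.

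At the top of the pathway, the transcripts of both SREBP genes fell, whereas those of the SREBP escort SCAP did not pass the test. SREBF2 (ENSG00000198911, chr22:41833079-41907308 on GRCh38, plus strand), which encodes SREBP-2, had 174, 184 and 172 CPM (counts scaled by the TMM-adjusted size of the library) with vehicle and 129, 123 and 129 with SCH. All 3 SCH-treated samples were below all 3 vehicle-treated samples (log2 fold change -0.47 ± 0.050 (SE), adjusted p = 2.66e-08). SREBF1 (ENSG00000072310, chr17:17810399-17837002, minus strand), which encodes both forms of SREBP-1, had 79.9, 86.5 and 73.3 CPM with vehicle and 66.7, 61.2 and 56.5 with SCH. The groups did not overlap, but relative to the mean the replicates of each group were spread more widely than for SREBF2 (log2 fold change -0.38 ± 0.068 (SE), adjusted p = 4.49e-05). The ratio of SREBF1 to SREBF2, taken from FPKM within each sample, was 0.425 ± 0.0211 (SD, n = 3) with vehicle and 0.455 ± 0.0378 with SCH, and the ranges overlapped. SCAP (chr3:47413694-47477126, minus strand) had 124, 124 and 115 CPM against 123, 113 and 112. Its log2 fold change was -0.06 ± 0.055 with a 95% interval of -0.18 to 0.05 (adjusted p = 0.337).

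Of the 2 INSIG genes, whose products hold SCAP and SREBP in the endoplasmic reticulum, INSIG1 fell and INSIG2 did not pass the test. INSIG1 (ENSG00000186480, chr7:155297776-155310235, plus strand) had 116, 117 and 119.8 CPM with vehicle and 77.3, 73.9 and 72.7 with SCH. All SCH-treated samples were lower, by far more than the spread of the replicates (log2 fold change -0.66 ± 0.053 (SE), adjusted p = 2.72e-10). INSIG2 (chr2:118088452-118110997, plus strand) had 24.9, 23.5 and 26.1 CPM against 25.3, 25.2 and 26.1, and the groups overlapped (log2 fold change 0.04 ± 0.076, 95% interval -0.12 to 0.20, adjusted p = 0.668). Per length, INSIG1 exceeded INSIG2 by 5.14 ± 0.215 times (SD, n = 3) with vehicle and by 3.17 ± 0.150 times with SCH, with no overlap between the groups. STARD4 (chr5:111496033-111512590, minus strand), a carrier that moves cholesterol between membranes, went the other way. It had 46.3, 48.8 and 54.8 CPM with vehicle and 70.2, 73.5 and 68.6 with SCH (log2 fold change 0.50 ± 0.065 (SE), adjusted p = 5.59e-07).

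The 250 bases before the RefSeq start of a gene were read for 32 of the members from RefSeq promoter windows on GRCh38.p14. Several genes have more than 1 start and so up to 4 windows, and a gene was counted as holding a motif if any of its windows did. The windows of 3 genes with 1 start each are printed because SREBF2 and INSIG1 stand at the head of the pathway and TM7SF2 changed the most of all members. All 3 lie on the plus strand, SREBF2 at chr22:41832855-41833104, INSIG1 at chr7:155297628-155297877 and TM7SF2 at chr11:65111622-65111871. The RefSeq start, just after the end of each window, lies downstream of the start in the deposited table for all 3, so each window reaches into the gene as deposited. Capitals mark the letters searched for on both strands: TCACNCCAC (the core of a sterol regulatory element), CCAAT (bound by NF-Y), GGGCGG (the GC box bound by Sp1) and CACGTG (an E-box). On the other strand CCAAT reads ATTGG and GGGCGG reads CCGCCC.
SREBF2: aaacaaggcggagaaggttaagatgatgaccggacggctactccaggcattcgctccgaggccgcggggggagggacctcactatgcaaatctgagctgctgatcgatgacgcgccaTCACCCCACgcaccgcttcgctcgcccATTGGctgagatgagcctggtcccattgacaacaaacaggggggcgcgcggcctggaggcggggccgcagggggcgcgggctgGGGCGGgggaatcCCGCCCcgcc
INSIG1: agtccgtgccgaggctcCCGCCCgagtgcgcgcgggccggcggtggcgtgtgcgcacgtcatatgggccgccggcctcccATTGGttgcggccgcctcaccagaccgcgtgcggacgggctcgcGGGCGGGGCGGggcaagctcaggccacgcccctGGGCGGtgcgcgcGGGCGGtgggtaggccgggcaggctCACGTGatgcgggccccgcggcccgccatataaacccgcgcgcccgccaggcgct
TM7SF2: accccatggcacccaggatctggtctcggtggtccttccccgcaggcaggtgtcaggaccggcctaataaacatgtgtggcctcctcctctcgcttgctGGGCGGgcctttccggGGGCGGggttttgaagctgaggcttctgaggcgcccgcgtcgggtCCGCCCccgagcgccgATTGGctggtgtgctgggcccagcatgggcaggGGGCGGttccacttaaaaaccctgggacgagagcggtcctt
The letters TCACNCCAC began 133 bases before the RefSeq start of SREBF2, and SREBF2 was the only member with them in its window (3.12% of 32), against 1.19% of the 10348 tested genes with a window and 1.09% of all 27305 genes with one. CCAAT was in the windows of 22 members (68.8%), against 41.4% of the tested genes with a window and 37.0% of all genes. It stood in 14 of the 19 members with a window that fell and in 6 of the 7 that rose. GGGCGG was in 31 members (96.9%), against 74.4% of tested genes and 46.2% of all genes, and copies of it can overlap. CACGTG was in 4 members (12.5%), namely ABCA1, INSIG1, SC5D and SCAP, against 11.2% and 7.73%. A direct repeat of AGGTCA with 4 bases between the copies, the element that LXR is known to bind, was in no member, in none of the tested genes with a window and in 5 of the 27305 genes. These matches describe letters in a short window and do not show binding. A window without the letters does not show that the gene lacks such an element, since other spellings and positions were not searched.

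Along the mevalonate arm, which builds farnesyl diphosphate from acetyl-CoA, 5 of 7 genes fell (71.4%, beside 29.4% of all tested genes), 1 rose (14.3%, beside 29.3%) and 1 did not pass the test (median log2 fold change -0.47). PMVK (ENSG00000163344, chr1:154924734-154936991, minus strand), which adds the next phosphate to phosphomevalonate, had 36.96, 36.3 and 29.4 CPM with vehicle and 26.2, 16.8 and 20.3 with SCH. The groups did not overlap, but both were widely spread (log2 fold change -0.70 ± 0.113 (SE), adjusted p = 1.13e-05). MVK (ENSG00000110921, chr12:109573255-109598117, plus strand), the kinase just before it, had 49.4, 51.02 and 47.5 CPM with vehicle and 30.1, 29.6 and 31.97 with SCH, and its replicates lay close together (log2 fold change -0.69 ± 0.067 (SE), adjusted p = 5.42e-09). FDPS (chr1:155308748-155320666, plus strand), which makes farnesyl diphosphate, had 111, 119 and 107 CPM against 77.9, 77.8 and 76.9 (log2 fold change -0.53 ± 0.055 (SE), adjusted p = 1.69e-08).

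HMGCS1 (chr5:43289395-43313512, minus strand), which joins acetyl-CoA to acetoacetyl-CoA, and ACAT2 (chr6:159760328-159779055, plus strand), the cytosolic thiolase one step earlier, also fell. HMGCS1 had 38.4, 39.8 and 39.8 CPM with vehicle and 27.6, 28.3 and 29.2 with SCH (log2 fold change -0.47 ± 0.068 (SE), adjusted p = 2.47e-06). ACAT2 had 105, 102 and 96.9 CPM against 80.7, 70.4 and 79.6 (log2 fold change -0.40 ± 0.060 (SE), adjusted p = 4.49e-06). In both genes every SCH-treated sample was below every vehicle-treated sample.

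Between the kinases and FDPS lie MVD and IDI1, of which IDI1 was the only gene of the arm to rise. IDI1 (ENSG00000067064, chr10:1039152-1049170, minus strand), which interconverts the C5 isoprenoid isomers, had 93.7, 89.7 and 95.03 CPM with vehicle and 116, 134 and 132 with SCH, so that all SCH-treated samples were higher (log2 fold change 0.46 ± 0.058 (SE), adjusted p = 3.73e-07). MVD (chr16:88651935-88663161, minus strand), which removes the carboxyl group from mevalonate diphosphate, had 51.2, 56.5 and 42.8 CPM against 54.2, 51.5 and 54.5. Its vehicle-treated samples spread across the whole range of the SCH-treated ones (log2 fold change 0.09 ± 0.077, 95% interval -0.07 to 0.25, adjusted p = 0.325). MVD passed the test as higher when vehicle replicate 2 was left out (log2 fold change 0.19) and was at -0.0082 when vehicle replicate 3 was left out.

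**Figure D2:**
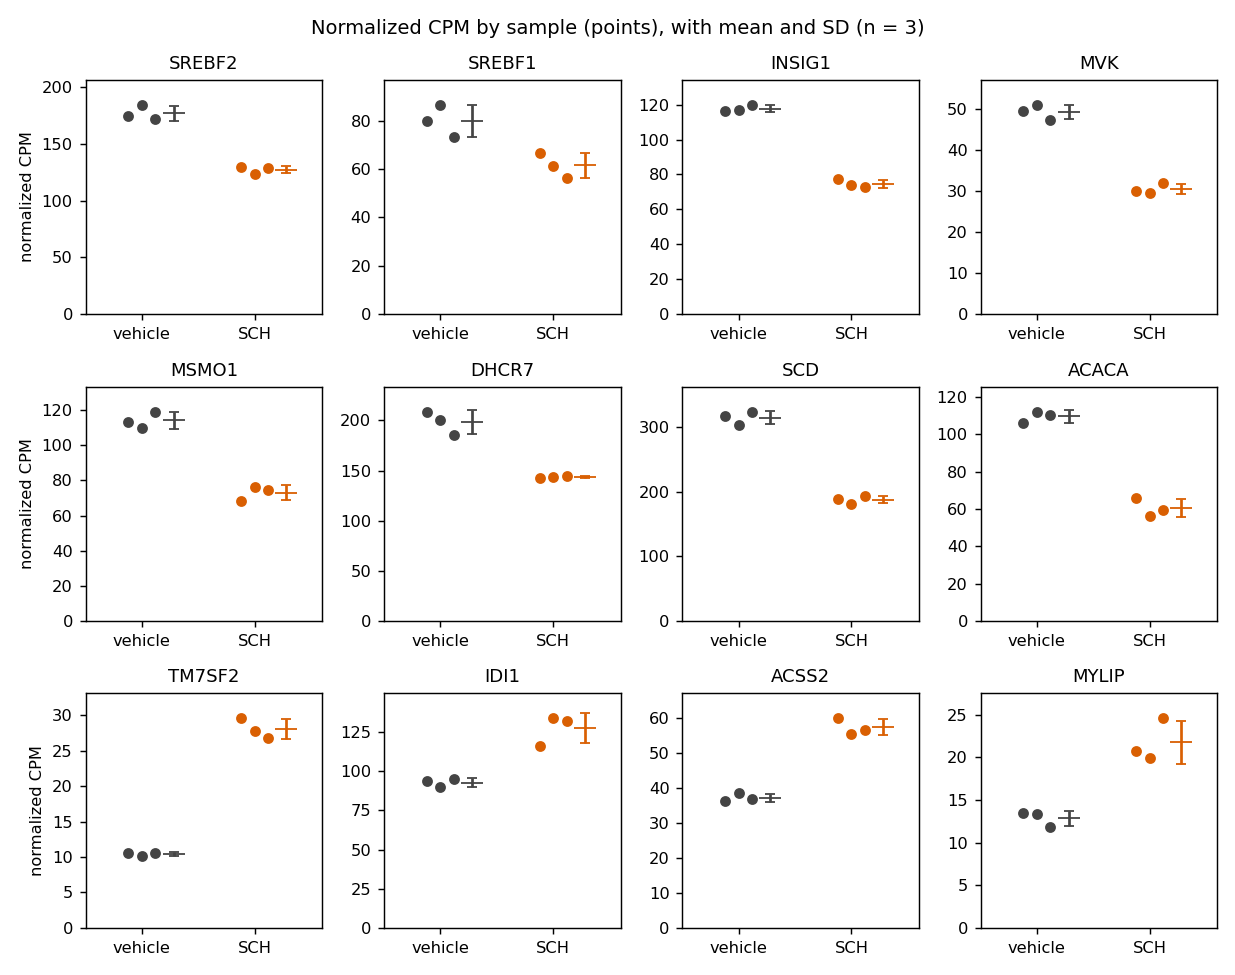
Normalized CPM (vertical axis, from 0) of 12 of the genes in each vehicle-treated (grey) and SCH-treated (orange) sample, with the mean and SD (n = 3) at the right of each group. In the upper 8 genes every SCH-treated sample lies below every vehicle-treated sample, and in the lower 4 (TM7SF2, IDI1, ACSS2, MYLIP) every SCH-treated sample lies above.

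From squalene to cholesterol, 8 of 11 genes fell (72.7%, beside 29.4% of all tested genes), 2 rose (18.2%, beside 29.3%) and 1 did not pass the test (median log2 fold change -0.42). With library size only, 6 fell. The gene that stood apart was TM7SF2 (ENSG00000149809, chr11:65111845-65116384, plus strand), a sterol reductase that removes the C14 double bond. It had 10.6, 10.1 and 10.6 CPM with vehicle and 29.5, 27.8 and 26.8 with SCH, a 2.69-fold rise that was far larger than the spread in either group (log2 fold change 1.43 ± 0.087 (SE), adjusted p = 2.27e-12). LBR (chr1:225401502-225428925, minus strand), an inner nuclear membrane protein with the same reductase activity that was not among the 37 genes, had 176, 181 and 202 CPM with vehicle and 109, 114 and 119.6 with SCH (log2 fold change -0.71 ± 0.057 (SE), adjusted p = 2.52e-10). The ratio of TM7SF2 to LBR, from FPKM within each sample, was 0.0864 ± 0.00574 (SD, n = 3) with vehicle and 0.380 ± 0.0362 with SCH, so that LBR remained the more abundant of the pair. Of its neighbours on the route, CYP51A1 did not pass the test and MSMO1 fell. CYP51A1 (chr7:92112151-92134803, minus strand), the demethylase that acts before it, had 10.6, 11.98 and 8.88 CPM against 10.7, 9.29 and 9.41 (log2 fold change -0.10 ± 0.121, 95% interval -0.35 to 0.15, adjusted p = 0.499).

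MSMO1 (ENSG00000052802, chr4:165327623-165343160, plus strand), the C4 sterol methyl oxidase that acts next, had 113, 109.9 and 119 CPM with vehicle and 68.2, 76.2 and 74.7 with SCH, without overlap (log2 fold change -0.64 ± 0.057 (SE), adjusted p = 1.48e-09). EBP (chrX:48521158-48528716, plus strand), the sterol isomerase, had 68.2, 69.9 and 64.5 CPM against 46.4, 46.9 and 46.3, and its 3 SCH-treated samples agreed closely (log2 fold change -0.54 ± 0.060 (SE), adjusted p = 5.19e-08). FDFT1, which encodes squalene synthase and so commits farnesyl diphosphate to sterol, had 90.02, 84.4 and 84.9 CPM with vehicle and 58.8, 61.2 and 62.7 with SCH (log2 fold change -0.50 ± 0.057 (SE), adjusted p = 6.47e-08). DHCR7 (chr11:71428193-71452868, minus strand), the last reductase on the route to cholesterol through 7-dehydrocholesterol, was the sterol gene with the highest level per length. Its CPM was 209, 200.5 and 185 with vehicle and 142, 143 and 144 with SCH (log2 fold change -0.47 ± 0.052 (SE), adjusted p = 5.33e-08). NSDHL and HSD17B7, which complete the removal of the C4 methyl groups, both fell, with log2 fold changes of -0.42 ± 0.065 and -0.42 ± 0.099 (SE). SC5D (chr11:121292453-121308694, plus strand), the desaturase that makes 7-dehydrocholesterol, rose. It had 40.6, 37.4 and 41.7 CPM with vehicle and 47.01, 52.7 and 59.4 with SCH (log2 fold change 0.41 ± 0.076 (SE), adjusted p = 6.66e-05).

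The falls of SQLE and LSS were the smallest of those that passed the test. SQLE, the squalene epoxidase, had 75.5, 69.3 and 77.03 CPM with vehicle and 59.6, 65.97 and 63.7 with SCH (log2 fold change -0.23 ± 0.061 (SE), adjusted p = 0.00254), and with scaling by library size only it missed the threshold (log2 fold change -0.13, adjusted p = 0.0834). LSS (chr21:46188141-46228824, minus strand), which closes the sterol rings, had 105, 108 and 92.2 CPM against 96.4, 83.7 and 88.8, and the groups overlapped (log2 fold change -0.18 ± 0.064 (SE), adjusted p = 0.0177). LSS missed the threshold without vehicle replicate 1 (log2 fold change -0.16), vehicle replicate 2 (-0.13), SCH replicate 2 (-0.13) or SCH replicate 3 (-0.16).

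In fatty acid synthesis, 6 of 8 genes fell (75%, beside 29.4% of all tested genes), 1 rose (12.5%, beside 29.3%) and 1 did not pass the test (median log2 fold change -0.46). ACACA (ENSG00000278540, chr17:37084988-37406818, minus strand), the acetyl-CoA carboxylase that makes malonyl-CoA for fatty acid synthesis, had 106, 112 and 111 CPM with vehicle and 66.05, 56.4 and 59.5 with SCH. It fell more than any other member (log2 fold change -0.85 ± 0.061 (SE), adjusted p = 3.07e-11). ACACA was also the only member that spans more than 200 kb of genome. The 1021 tested genes of that span had a median log2 fold change of -0.36, and 55.9% of them were lower after SCH. The 27 members that span up to 50 kb had a median of -0.38, where the 9741 tested genes of that span had a median of 0.011. Without ACACA, 22 of 35 tested members were lower and 7 higher. ACACB (chr12:109116595-109268226, plus strand), the carboxylase of the outer mitochondrial membrane, which was not among the 37 genes, had 6.05, 6.57 and 6.75 CPM with vehicle and 10.4, 8.16 and 9.62 with SCH (log2 fold change 0.54 ± 0.128 (SE), adjusted p = 8.48e-04). The ratio of ACACA to ACACB, from FPKM, was 18.9 ± 0.627 (SD, n = 3) with vehicle and 7.22 ± 0.430 with SCH, with no overlap.

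SCD (ENSG00000099194, chr10:100347124-100364834, plus strand), the desaturase that makes oleate, had 317, 304 and 324 CPM with vehicle and 189, 182 and 193 with SCH, and the replicates of each group lay close together (log2 fold change -0.74 ± 0.048 (SE), adjusted p = 6.12e-12). Its paralogue SCD5 had 31.5, 32.2 and 30.5 CPM against 34.7, 35.9 and 34.3 and did not pass the test (log2 fold change 0.15 ± 0.068 (SE), adjusted p = 0.0572). The ratio of SCD to SCD5 was 8.03 ± 0.469 (SD, n = 3) with vehicle and 4.31 ± 0.227 with SCH. FADS2 (chr11:61792980-61867354, plus strand), the desaturase that starts the synthesis of polyunsaturated fatty acids, had 236, 236 and 214 CPM with vehicle and 147, 144 and 139.7 with SCH (log2 fold change -0.67 ± 0.052 (SE), adjusted p = 1.24e-10). Its neighbour FADS1 (chr11:61799625-61829318, minus strand), which acts later on the same route and lies on the other strand, had 323, 319 and 327 CPM against 309.5, 323 and 309. The groups overlapped (log2 fold change -0.04 ± 0.046, 95% interval -0.13 to 0.05, adjusted p = 0.473), and the ratio of FADS2 to FADS1 went from 0.657 ± 0.0434 (SD, n = 3) to 0.425 ± 0.0142 without overlap.

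ELOVL6 (chr4:110045846-110199199, minus strand), which lengthens palmitate, had 93.6, 92.1 and 95.9 CPM with vehicle and 61.9, 64.4 and 62.04 with SCH (log2 fold change -0.58 ± 0.055 (SE), adjusted p = 3.55e-09). FASN, the fatty acid synthase, had 423, 435 and 414 CPM against 367, 338 and 297 (log2 fold change -0.34 ± 0.058 (SE), adjusted p = 2.22e-05), with SCH replicate 3 the lowest. ACLY, which makes cytosolic acetyl-CoA from citrate, had 551, 583 and 545 CPM with vehicle and 467, 449 and 453 with SCH (log2 fold change -0.29 ± 0.046 (SE), adjusted p = 8.56e-06). The other source of acetyl-CoA in the list went up. ACSS2 (ENSG00000131069, chr20:34872146-34927962, plus strand), which makes acetyl-CoA from acetate, had 36.3, 38.5 and 36.998 CPM with vehicle and 59.97, 55.6 and 56.7 with SCH (log2 fold change 0.62 ± 0.064 (SE), adjusted p = 1.36e-08). Per length, the ratio of ACLY to ACSS2 went from 15.5 ± 0.244 (SD, n = 3) to 8.21 ± 0.152, so that ACLY remained the higher of the 2 genes in every sample.

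**Figure D3:**
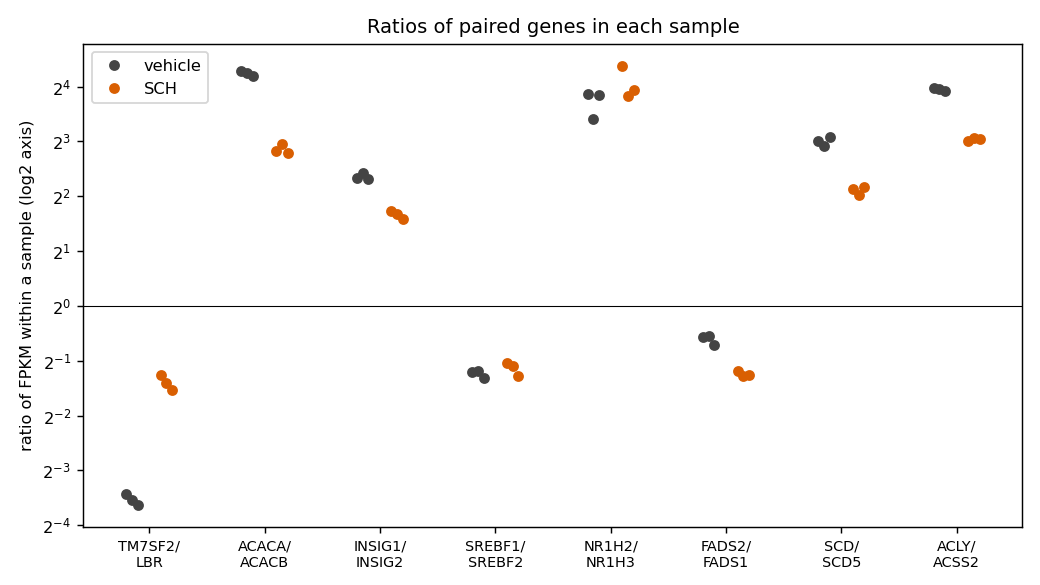
Ratio of FPKM between 2 genes within each sample (log2 axis), for 8 pairs of related genes that were chosen after the values were seen, in vehicle-treated (grey) and SCH-treated (orange) samples. The groups do not overlap for 6 pairs, with TM7SF2 to LBR moving from 0.0864 to 0.380, and overlap for SREBF1 to SREBF2 and for NR1H2 to NR1H3. In TM7SF2 to LBR, ACACA to ACACB and ACLY to ACSS2, the 2 genes each separated in opposite directions, so their ratio had to separate.

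Of the 5 genes of the LXR arm, 4 passed the filter on low counts, of which 1 fell, 2 rose and 1 did not pass the test (median log2 fold change 0.08). The 25% that fell was near the 29.4% of all tested genes, and the 50% that rose stands beside 29.3%, over only 4 genes. NR1H2 (ENSG00000131408, chr19:50329653-50382982, plus strand), which encodes LXR-beta, had 116, 114 and 111 CPM with vehicle and 137, 130.2 and 137 with SCH (log2 fold change 0.24 ± 0.051 (SE), adjusted p = 2.44e-04). NR1H3 (chr11:47248300-47269032, plus strand), which encodes LXR-alpha, had 9.64, 12.9 and 9.33 CPM against 7.97, 11.1 and 10.8, and the groups overlapped (log2 fold change -0.09 ± 0.137, 95% interval -0.37 to 0.19, adjusted p = 0.596). Per length, NR1H2 exceeded NR1H3 by 13.2 ± 2.21 times (SD, n = 3) with vehicle and by 16.8 ± 3.50 times with SCH, with overlapping ranges.

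The LXR targets differed in direction. MYLIP (ENSG00000007944, chr6:16129125-16148248, plus strand), a ubiquitin ligase that marks lipoprotein receptors for degradation, had 13.4, 13.3 and 11.9 CPM with vehicle and 20.8, 19.9 and 24.6 with SCH (log2 fold change 0.76 ± 0.097 (SE), adjusted p = 5.10e-07). ABCA1 (ENSG00000165029, chr9:104781002-104928237, minus strand), the pump that passes cholesterol to lipid-poor apolipoprotein, had 6.41, 6.24 and 6.75 CPM with vehicle and 3.96, 4.08 and 5.57 with SCH. All SCH-treated samples were lower, with SCH replicate 3 nearest to the vehicle-treated ones (log2 fold change -0.51 ± 0.155 (SE), adjusted p = 0.00729). ABCA1 was scarce, and its log2 fold change ranged from -0.67 without SCH replicate 3 to -0.16 on the log2(FPKM + 1) scale, past the threshold each time. ABCG1, a second cholesterol pump, had 1 count in vehicle replicate 1 and 0 in the other 5 samples, where 3 counts correspond to 0.154 to 0.172 CPM, so no change could be measured at this depth.

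Compared per length, the members covered a wide range of levels. In the vehicle group ACLY was highest at 104 ± 3.83 FPKM (SD, n = 3), followed by SCD at 56.8 ± 1.79, DHCR7 at 46.01 ± 2.81, FASN at 43.8 ± 1.14, MSMO1 at 38.1 ± 1.53 and INSIG1 at 31.2 ± 0.476. DHCR7 and FASN overlapped between samples, as did INSIG1 and the next gene, FADS1 (30.5 ± 0.370). At the lower end stood TM7SF2 at 2.96 ± 0.0827, HSD17B7 at 2.89 ± 0.0880, CYP51A1 at 2.82 ± 0.419, NR1H3 at 2.27 ± 0.426 and ABCA1 at 0.550 ± 0.0216 FPKM, of which TM7SF2, HSD17B7, CYP51A1 and NR1H3 overlapped with their neighbours. The place of CYP51A1 is uncertain, since exons of other genes covered 83.2% of its exonic bases. Of the 36 pairs of neighbours in this order, 21 overlapped. The highest tested member was 188 times as abundant as the lowest. With SCH, ACLY was still highest (84.96 ± 2.04 FPKM), NR1H2 moved from place 8 to place 2 (34.9 ± 1.05 FPKM), and IDI1 moved from place 15 to place 7 (28.5 ± 2.07 FPKM). SCD moved to place 4 (34.05 ± 0.984 FPKM), and TM7SF2 moved from place 32 to place 26 (7.99 ± 0.420 FPKM). Among NR1H2, FASN, SCD and DHCR7, at places 2 to 5 with SCH, each gene overlapped with the next between samples, so the order of neighbours there is not resolved.

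Summed over the genes of a role, FPKM fell in 4 of the 5 roles. The mevalonate arm went from 124 ± 6.47 (SD, n = 3) to 104 ± 3.41 FPKM, the sterol enzymes from 199.8 ± 5.00 to 156 ± 1.46, the genes of SREBP regulation from 96.1 ± 1.37 to 79.5 ± 2.49 and the fatty acid genes from 282 ± 3.66 to 219 ± 6.43. The LXR arm went from 36.2 ± 1.14 to 44.4 ± 1.63 FPKM, and NR1H2 made up most of it. In each role the 3 samples of a group did not overlap with those of the other. These sums depend on the scaling of the FPKM, which was lower against the total count with SCH than with vehicle. As a share of all counts, the mevalonate arm held 0.0467%, 0.0475% and 0.0444% with vehicle and 0.0428%, 0.0423% and 0.0439% with SCH. The genes of SREBP regulation held 0.0543%, 0.0560% and 0.0544% against 0.0509%, 0.0487% and 0.0480%. A sum is set mostly by its abundant genes. In the mevalonate arm FDPS was the highest with vehicle (29.2 ± 1.62 FPKM) and IDI1, the gene that rose, with SCH (28.5 ± 2.07 FPKM).

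**Figure D4:**
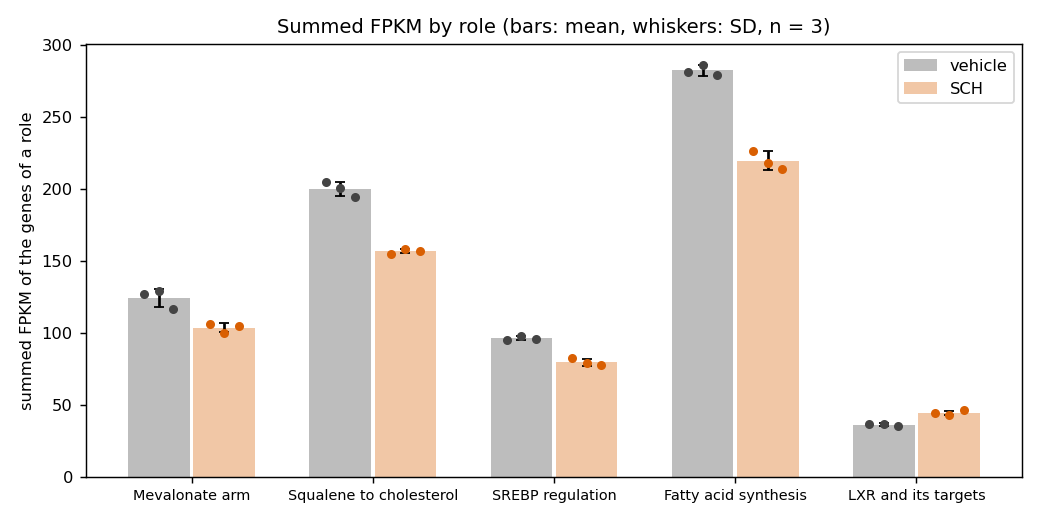
Summed FPKM of the genes of each role (vertical axis, from 0), as the mean of 3 samples (bars) with the SD (whiskers) and each sample (points), for vehicle (grey) and SCH (orange). Fatty acid synthesis went from 282 to 219 FPKM and the sterol enzymes from 199.8 to 156, whereas the LXR arm went from 36.2 to 44.4.

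A list of 72 further genes of SREBP processing, isoprenoid and late sterol metabolism, sterol transport, fatty acid and triglyceride metabolism and LXR function had 64 tested genes, of which 20 were lower (31.2%) and 25 higher (39.1%) after SCH, beside 29.4% and 29.3% of all tested genes. This balance depended on the scaling, with 24 lower and 23 higher after upper quartile scaling and 15 lower and 28 higher with library size only. The median log2 fold change was 0.00091, against -0.39 for the 36 members. Among the 14 tested genes of isoprenoid and late sterol metabolism, 8 fell (57.1%) and 3 rose (21.4%). LBR and PDSS2, which helps to make the side chain of coenzyme Q, fell most (log2 fold changes -0.71 ± 0.057 and -0.75 ± 0.113, SE). The PDSS2 gene spans 307 kb.

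In SREBP processing and turnover, 5 of 11 genes fell (45.5%) and 4 rose (36.4%), beside 29.4% and 29.3% of all tested genes. RNF145 (chr5:159157409-159210053, minus strand), a ubiquitin ligase of the endoplasmic reticulum, had 94.996, 90.2 and 102 CPM with vehicle and 57.3, 54.8 and 57.6 with SCH (log2 fold change -0.76 ± 0.059 (SE), adjusted p = 1.50e-10). ERLIN1, a membrane protein tied to sterol-regulated degradation, changed by -0.52 ± 0.054 on the log2 scale (SE).

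Of 12 tested genes of sterol transport and storage, 7 were higher (58.3%) and 2 lower (16.7%), beside 29.3% and 29.4% of all tested genes, and these counts were not recomputed under other scalings. The 2 that fell were SCARB1 and TMEM97. SCARB1 (ENSG00000073060, chr12:124776856-124882668, minus strand), the receptor that takes up cholesteryl ester from high-density lipoprotein, had 111, 112 and 110.3 CPM with vehicle and 53.1, 54.2 and 53.9 with SCH. This was the largest fall among the pathway genes named here (log2 fold change -1.05 ± 0.054 (SE), adjusted p = 1.35e-13). TMEM97, a partner of the lysosomal cholesterol exporter NPC1, changed by -0.57 ± 0.059 on the log2 scale, and STARD3, which moves cholesterol from endosomes to other membranes, by 0.60 ± 0.058. Among 22 tested genes of fatty acid and triglyceride metabolism, 9 rose and 4 fell, and their 59.1% changed was close to the 58.7% of all tested genes. DGAT1, which makes triglyceride, had 36.1, 37.3 and 27.9 CPM with vehicle and 57.05, 54.4 and 50.9 with SCH (log2 fold change 0.68 ± 0.084 (SE), adjusted p = 2.61e-07). ELOVL7, which lengthens longer fatty acids, changed by 0.46 ± 0.085 on the log2 scale. Of the 5 tested LXR partners and targets, 2 rose (40%) and 1 fell (20%). RXRA, a receptor that pairs with LXR, had 50.8, 52.3 and 50.2 CPM with vehicle and 39.4, 37.4 and 35.8 with SCH (log2 fold change -0.45 ± 0.064 (SE), adjusted p = 2.68e-06), whereas its paralogue RXRB had 70.5, 67.1 and 60.5 CPM against 88.5, 82.1 and 83.2 (log2 fold change 0.36 ± 0.062 (SE), adjusted p = 2.97e-05). The LXR target SMPDL3A changed by 0.41 ± 0.133 on the log2 scale (adjusted p = 0.0102) and missed the threshold without vehicle replicate 1 (0.33) or SCH replicate 3 (0.33).

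Some counts could be too high or too low because of reads that a neighbour could share. Exons of other genes covered 83.2% of the exonic bases of CYP51A1, mostly on the same strand, and 52.3% of those of ACAT2 on the opposite strand, where SOD2 and TCP1 lie. For FDPS, HMGCS1 and IDI1 the share was 18.6%, 14.95% and 14.8%, all on the opposite strand. Since the strand setting of the counting is not given in the sources used here, reads of opposite-strand partners cannot be told apart, and the values of ACAT2 are uncertain. Those of CYP51A1 are uncertain whatever the setting, since only 3.85% of its exonic bases lie under a gene on the opposite strand. Pseudogenes of HSD17B7 held 5.96% as many counts as HSD17B7 itself, and those of CYP51A1 4.21%. TM7SF2, ACACA, SCD, INSIG1 and MSMO1 had at most 0.469% of their exonic bases under another gene.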

How the data were processed

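MDA-MB-231 cells treated with vehicle or SCH for 24 h gave 6 libraries of poly-T purified mRNA (NEBNext Ultra kit, Illumina HiSeq). Labels and methods name different media (RPMI-1640 and DMEM). Unnormalized counts per gene were deposited, and so were FPKM values, which the authors computed and which were checked to be proportional within a sample to the count divided by the gene's length. The submitters' processing notes name CASAVA 1.8, HISAT2 2.0.5, featureCounts 1.5.0-p3, DESeq2 1.20.0 and GRCh38. The strand setting is not given in the sources used here.

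The counts were analysed with edgeR 4.0.16 in R 4.3.3 (TMM, filterByExpr, quasi-likelihood test of SCH against vehicle without covariates, Benjamini-Hochberg over all 14736 tested genes, threshold 0.05). Normalized CPM are counts scaled by the TMM-adjusted size of the library. Each standard error was derived from the estimate and the F statistic, and the 95% intervals include the spread between samples. Levels of different genes were compared only as FPKM. At 16836369 to 20291379 counts per sample, a floor of 3 counts limits what can be seen, and this floor covers counting error only. Within a group, the chi-square of any library pair was 2.12 to 5.75 per degree of freedom, so none was a copy. The scripts were tested on simulated data.

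The 37 members and all lists were chosen with earlier results of these data known, and members are counted, not tested as a set. Genes were named by this rule: all SREBP and LXR regulators, in each role up to 5 changed members with the largest change plus those not past the threshold or filter, and in each further list up to 3 changed genes with the largest change and a mean count of at least 100. Some genes that this rule names are not reported here. Other genes named (LBR and ACACB also as members of ratio pairs, SCD5, further members, CYP27A1, PNPLA3) were chosen after their values were seen. Positions of all 109 listed genes match GENCODE release 29. Promoter windows are from RefSeq, with 32 of 37 members matched. ACAT2, FDFT1, SQLE, FASN and ABCG1 were not matched. Alternatives were RLE, upper quartile and library size scaling, no filter, a minimum of 10 counts per sample, DESeq2 1.42.0, a replicate block, limma 3.58.1 on log2(FPKM + 1) and log2(FPKM + 0.1), omission of each sample, and thresholds on the size of the change.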

Additional observations from a re-analysis of the deposited data

How the results depend on the processing

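Of 36 tested members, 29 had the same direction and call in all 15 alternatives run for single genes, as did 43 of 51 named genes, members included. Between 22 and 23 members were lower and 7 to 8 higher with 1 sample left out, against 23 and 7, and over all genes 7809 to 8489 changed, against 8650. DESeq2 called 7919 of the same tested genes. At a change of 0.5 or more on the log2 scale, 12 members were lower and 4 higher, and at 1 or more, 0 were lower and 1 higher, the largest fall being -0.85 for ACACA (edgeR). In the mevalonate arm, 2 genes were higher, against 1, with library size only, and 1 to 2 with 1 sample left out, the second being MVD (0.19, without vehicle replicate 2). Library size only, which moved the median of all genes to 0.10, turned 4 members that were not called (CYP51A1 0.0037, SCAP 0.040, FADS1 0.063, NR1H3 0.013). With 1 sample left out, CYP51A1 ranged from -0.20 to 0.0076 (turned without vehicle replicate 2), NR1H3 from -0.17 to 0.075 (without vehicle replicate 2, and 0.049 without SCH replicate 1) and MVD from -0.0082 (without vehicle replicate 3) to 0.19. LSS also missed the threshold with library size only (-0.079) and with limma on log2(FPKM + 1) (-0.16) or log2(FPKM + 0.1) (-0.17). The cause was not tested.

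Samples with the same replicate number did not deviate together (correlation of deviations 0.046, -0.022 and 0.022), so the numbers are not taken as pairs. With the number as a replicate block, 8705 genes changed, with 23 members lower and 7 higher, and of the further pathway genes 20 were lower and 24 higher.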

Other observations

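Low genes of the further lists, below a mean count of 100, held 2 large changes, both noticed after the values were seen. CYP27A1, which hydroxylates the cholesterol side chain in mitochondria and makes an LXR ligand, had 34, 25 and 37 counts with vehicle and 84, 63 and 69 with SCH, and the groups did not overlap (log2 fold change 1.17 ± 0.220 SE, adjusted p = 7.55e-05, edgeR). PNPLA3, which encodes a lipid droplet protein, had 126, 97 and 147 counts with vehicle and 68, 54 and 63 with SCH, again without overlap (log2 fold change -0.99 ± 0.175 SE, adjusted p = 3.67e-05, edgeR).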
